A study of Homo sapiens with 64 samples.

Results

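The genes studied here encode SR proteins, hnRNP proteins and the kinases that act on SR proteins. They were taken by name, as 38 genes of the SRSF, TRA2, HNRNP, CLK and SRPK families, from the 54127 genes of the count files. Of these, 37 matched 1 Ensembl identifier each and SRSF8 was not analysed here. A gene was tested where it had at least 10 counts in at least 4 samples, which 36 members met in every comparison. SRSF12 did not, with 0 to 9 reads in each of the 64 samples.

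RNA sequencing was performed on 6 human colorectal cancer cell lines, HT55, SW948, RKO, SW48, DLD1 and HCT15, grown as floating spheroids with the growth factors bFGF and EGF. Cells were first labeled with CFSE, which daughter cells share at division, so that label-retaining cells (LRCs) are those that have divided little. LRCs and the other cells of the same culture (labelled BULK, called non-LRCs here) were separated by flow cytometry on day 6. There were 4 samples of each from every line and 48 in all. A further 16 unsorted DLD1 samples served as controls, 4 each of CFSE-labeled and DMSO-treated cells at d1 and d5 after seeding, as the sample labels name the days (the series description calls the later day d6). Every sample came from an established line, and DLD1 and HCT15 are known to stem from the same tumor. The study's methods call its experiments biological replicates, while the labels do not say whether the 4 samples of a group were separate cultures, and p-values measure the spread between these samples. Controls without sorting were analysed for DLD1 alone, with no like set for the other 5 lines.

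Sequencing depth was even, with 12237225 to 20913455 reads on genes per sample and a median of 15063858. The members together held 0.603% to 0.994% of these reads in the sorted samples and 1.02% to 1.34% in the controls. All 10 intestinal epithelial markers (EPCAM, CDH1, KRT8, KRT18, KRT19, KRT20, CDX1, CDX2, VIL1 and LGALS4) were detected in 15 of the 16 groups, and all but CDX1 in the non-LRCs of HCT15, but their summed level was 210 to 319 CPM (reads scaled to an equal library total by the TMM method) in RKO against 2583 or more in every other line. Summed markers of blood cells, fibroblasts and endothelium stayed at or below 21.3, 13.2 and 3.5 CPM. The sorted and the control samples were scaled separately, so levels were tested within each set.

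SR proteins are splicing factors with an RNA recognition motif and a tail rich in serine and arginine. They bind exonic enhancers and recruit the spliceosome, whereas hnRNP proteins coat nascent transcripts and often favor exon skipping. SRPK kinases phosphorylate the tails of SR proteins in the cytoplasm and CLK kinases do so in the nucleus. Many genes of these families limit their own output through transcripts with a premature stop, which are degraded by nonsense-mediated decay. A count per gene adds such transcripts to those that encode the protein. In the GENCODE annotation 30 of the 37 members (81.1%) have at least 1 transcript of the decay class, against 46% of 13727 protein-coding genes that passed the filter in the sorted samples.

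Most members were highly expressed in the non-LRCs of every line. Per kilobase of annotated exon, the highest mean levels over the 6 lines were those of HNRNPK (130.04 CPM per kb), which binds C-rich RNA, HNRNPA1 (116 CPM per kb), HNRNPAB (101.3 CPM per kb) and HNRNPF (101.2 CPM per kb). The lowest of the tested members per kilobase were CLK4 (2.01 CPM per kb) and CLK3 (2.33 CPM per kb). Some loci overlap other genes, as SRSF9 does DYNLL1 and GATC on the opposite strand, HNRNPUL2 and HNRNPH2 readthrough genes on the same strand, HNRNPA3 NFE2L2 and HNRNPUL1 TGFB1, and with no strand setting stated reads of such pairs cannot be told apart. The level in non-LRCs differed between lines for 35 of 36 members (edgeR quasi-likelihood F test, adjusted p under 0.05), but 98.3% of all genes tested did so too. HNRNPH1 was the exception, with an adjusted p of 0.159 and line means from 284 CPM in HCT15 to 332 CPM in DLD1. HNRNPA1 spanned 2.77-fold, from 462 CPM in HCT15 to 1280.0 CPM in RKO, and HNRNPD spanned 2.79-fold, from 119 CPM in HT55 to 330.4 CPM in RKO. CLK1 had the widest span, 3.09-fold, from 32 CPM in RKO to 98.9 CPM in HT55.

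The first comparison asked whether LRCs differ from non-LRCs in all lines together. SR and hnRNP genes were lower in LRCs, with changes of -26.1% to -6.53% among the members called lower, and 3 of the 4 CLK genes were higher. The quasi-likelihood test of edgeR was run over 24 LRC and 24 non-LRC samples, with the line as a covariate and p adjusted over all genes tested (threshold 0.05). By this test 24 of 36 members were lower, where 10.7% of all 16603 genes tested were lower. The 3 members that were higher compare with 12.2% of all genes higher. The median log2 fold change of the members was -0.16 and 31 of 36 were below 0, whereas the median over all genes was 0.01. By family, 7 of 10 SRSF genes, 1 of 2 TRA2 genes, 15 of 18 HNRNP genes and 1 of 2 SRPK genes were lower. Without the RKO line 19 of the same 24 members were still lower, against 1078 of all 16286 genes tested. HNRNPH3, HNRNPL, HNRNPK, SRSF6 and SRSF9 then missed the threshold. In bulk samples, fewer cells that express a gene and less RNA per cell cannot be told apart.

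**Figure D1:**
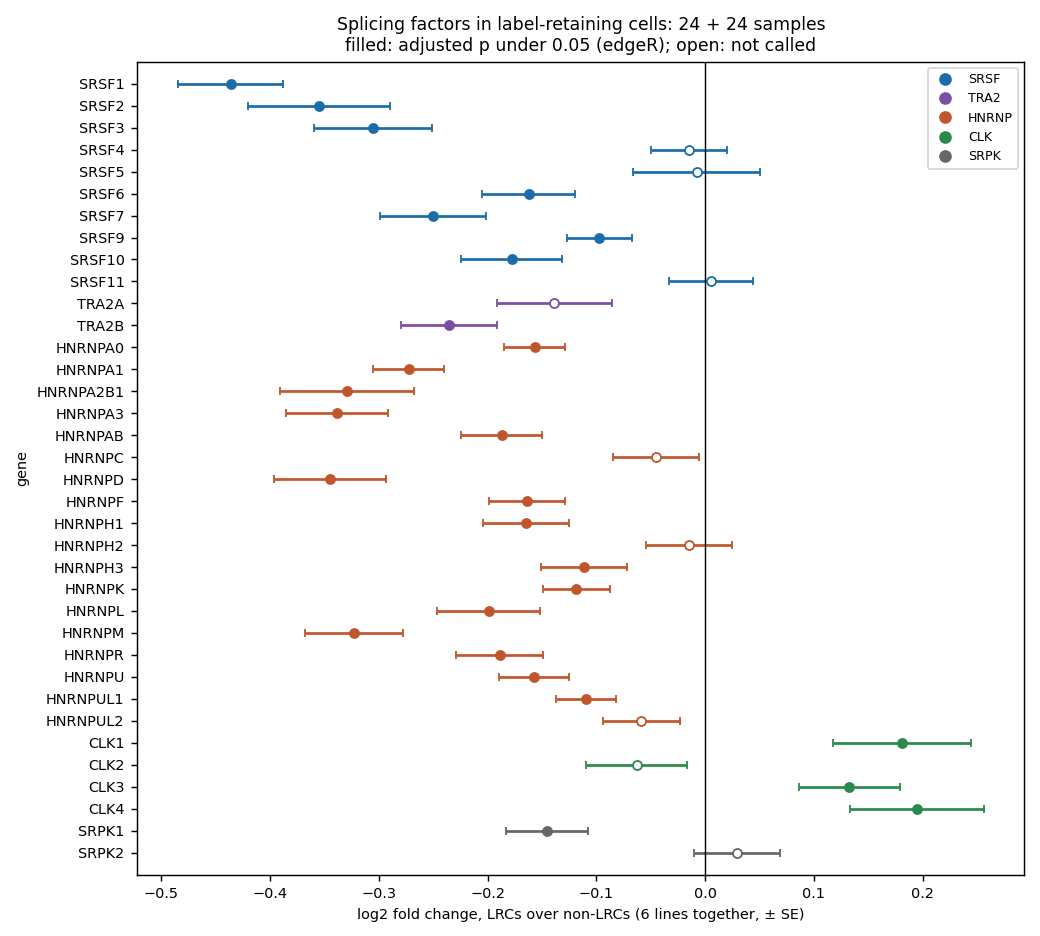
Log2 fold change of each of the 36 tested members, LRCs over non-LRCs, in the fit over 6 lines, with 24 samples on each side. Points are estimates, bars are standard errors, colors mark gene families, and filled points passed an adjusted p of 0.05. Filled SRSF, TRA2, HNRNP and SRPK points lie left of 0, and the filled CLK points lie right of it.

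SRSF1, the founding SR protein and a known oncogene (GRCh37 chr17:56078280-56084707, minus strand), had the smallest p of all members. In RKO it measured 134, 153, 185 and 157 CPM in the 4 LRC samples against 276, 292, 275 and 271 CPM in the non-LRC samples. In DLD1 it measured 166, 155, 158 and 168 CPM in LRCs against 259.7, 238, 253 and 245 CPM in non-LRCs. LRCs and non-LRCs thus did not overlap in RKO or DLD1. In HCT15 LRCs held 156, 151, 139.5 and 153 CPM and non-LRCs 177, 189, 187 and 205 CPM, again with no overlap. In HT55 (159, 179.9, 186 and 163 CPM against 239.7, 166, 191 and 216 CPM) and SW948 (194, 214, 181 and 242 CPM against 229, 255, 242 and 244 CPM) the ranges overlapped. In SW48 LRCs gave 234, 278, 212 and 212 CPM and non-LRCs 274, 345, 295 and 295 CPM, where replicate 2 was the highest of both populations. Over all lines SRSF1 fell by 0.44 on the log2 scale (standard error, SE, 0.0486, edgeR adjusted p = 1.69e-08), which is 26.1% lower.

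**Figure D2:**
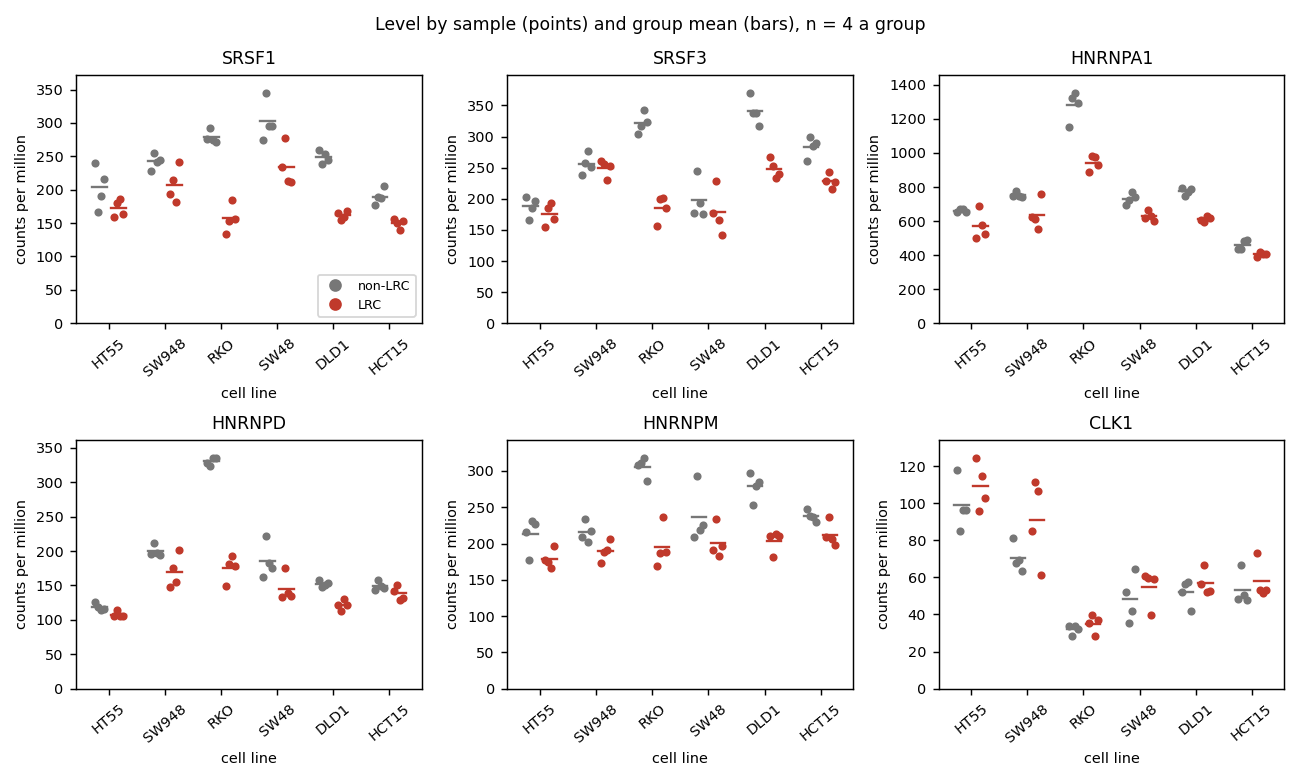
Level in CPM (linear axis from 0) of 6 members in each sorted sample of each line. Gray points are non-LRCs, red points are LRCs, and bars are the means of 4 samples. The populations do not overlap in RKO or DLD1 for SRSF1, SRSF3, HNRNPA1, HNRNPD and HNRNPM, and they overlap in both lines for CLK1.

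SRSF2 and SRSF3 were lower as well. SRSF2, a nuclear SR protein whose gene overlaps MFSD11 on the opposite strand (GRCh37 chr17:74730197-74733415), measured 102, 116, 122 and 104 CPM in RKO LRCs and 199.7, 189, 211 and 188 CPM in RKO non-LRCs. In DLD1 SRSF2 measured 178, 170.3, 153 and 144 CPM against 234, 220.4, 219 and 199 CPM. Its change over the lines was -0.35 (SE 0.0654, adjusted p = 7.51e-05). SRSF3, the smallest SR protein, measured 156, 199.8, 202 and 186 CPM in RKO LRCs and 304, 316, 343 and 324 CPM in non-LRCs, and changed by -0.31 over the lines (SE 0.0544, adjusted p = 4.64e-05). Both genes were separated without overlap in RKO, DLD1 and HCT15. In HCT15 SRSF3 measured 229, 244, 216 and 228 CPM in LRCs and 260.4, 299, 284 and 289.5 CPM in non-LRCs. SRSF7, SRSF10, SRSF6 and SRSF9 were lower by -0.25, -0.18, -0.16 and -0.10. SRSF4, SRSF5 and SRSF11 gave -0.01, -0.01 and 0.01 with adjusted p of 0.811, 0.944 and 0.943, so 3 of the 10 tested genes of the SRSF family showed no detectable change.

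Among hnRNP genes the smallest p belonged to HNRNPA1, which binds exonic silencers and shuttles out of the nucleus (GRCh37 chr12:54673977-54680872). It measured 887, 982, 978 and 928 CPM in RKO LRCs against 1152, 1323, 1352 and 1292 CPM in non-LRCs. In DLD1 it measured 605, 595, 628 and 619 CPM against 795, 749, 771 and 786 CPM. In SW48 it measured 618, 665, 629.5 and 603 CPM against 695, 723, 769 and 739.6 CPM. HNRNPA1 was lower without overlap in RKO, SW48, DLD1 and HCT15, and over the lines by 17.2% (log2 -0.27, SE 0.033, adjusted p = 1.035e-07). The count files list 65 HNRNPA1 pseudogenes, and reads that fit several copies were not assigned, so its level is uncertain.

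HNRNPA3, HNRNPM, HNRNPD and HNRNPA0 completed the 8 lower members with the smallest p. HNRNPD, also known as AUF1 and a factor in mRNA decay (GRCh37 chr4:83273651-83295656), measured 149, 182, 193 and 178 CPM in RKO LRCs against 328, 324, 335 and 335 CPM in non-LRCs, and changed by -0.345 over the lines (SE 0.0518, adjusted p = 3.46e-06). HNRNPM (GRCh37 chr19:8509651-8553998) measured 168, 187, 237 and 189 CPM against 308, 311, 318 and 286 CPM in RKO, and -0.32 over the lines (SE 0.0451, adjusted p = 9.88e-07). In RKO neither gene overlapped between the populations. HNRNPA3 (GRCh37 chr2:178077422-178088687) measured 212, 192, 219 and 217 CPM in DLD1 LRCs against 300.0, 276, 292 and 293 CPM, and -0.34 over the lines (SE 0.0469, adjusted p = 8.53e-07). HNRNPA0, an intronless gene (GRCh37 chr5:137081340-137090052), changed by -0.16 (SE 0.0278, adjusted p = 4.48e-05). In SW48 it measured 133, 126, 128 and 118 CPM in LRCs and 149.6, 151, 154 and 157 CPM in non-LRCs, with no overlap, as also in RKO and HCT15. The other lower hnRNP members ranged from HNRNPA2B1 (-0.33) through HNRNPL (-0.20), HNRNPR (-0.19), HNRNPAB (-0.19), HNRNPH1 (-0.16), HNRNPF (-0.16), HNRNPU (-0.16), HNRNPK (-0.12) and HNRNPH3 (-0.11) to HNRNPUL1 (-0.11). HNRNPC, HNRNPUL2 and HNRNPH2 did not pass, with -0.05, -0.06 and -0.01.

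The kinases did not move as one group. CLK1, CLK3 and CLK4 were higher in LRCs by 0.18 (SE 0.0635, adjusted p = 0.0328), 0.13 (SE 0.0463, adjusted p = 0.032) and 0.19 (SE 0.0618, adjusted p = 0.0177), and CLK2 gave -0.06 (adjusted p = 0.354). CLK1 measured 84.8, 112, 107 and 61.4 CPM in SW948 LRCs against 81.1, 68, 69.2 and 63.5 CPM in non-LRCs, and the populations overlapped in every line. CLK4 measured 18.3, 19.7, 21.8 and 13.2 CPM in SW948 LRCs against 15.6, 13, 16.2 and 12.3 CPM. CLK3 measured 50.8, 51.6, 55 and 50.3 CPM in DLD1 LRCs against 41.6, 40.6, 51.3 and 45.2 CPM, where 1 non-LRC sample lay within the LRC range. Within single lines 0 CLK genes passed the test as reported, but other settings called CLK1 higher in SW948 (0.38, adjusted p = 0.00145) and CLK4 higher in RKO (0.30, adjusted p = 0.0347), both without a filter on low counts, and CLK3 higher in DLD1 by DESeq2 (0.23, adjusted p = 0.0481). CLK1 and CLK4 also passed in SW948 without LRC replicate 4, CLK4 in RKO without LRC or non-LRC replicate 3, and CLK3 in DLD1 without non-LRC replicate 3 and without TMM scaling. The 3 higher calls depended on single samples and lines. Leaving out replicate number 2 from every line gave 0, and leaving out number 1, 3 or 4 gave 1 each. The count was 0 without the SW948 line, 0 without the DLD1 line and 1 without the RKO line. Over all genes, 2033 higher calls became 1562 without number 2 and 1155 to 1390 without another number. They became 1594 without SW948, 1543 without DLD1 and 1300 without RKO. SRPK1, the main cytoplasmic SR protein kinase, was lower by 0.15 on the log2 scale over the lines (SE 0.0378, adjusted p = 0.00378), but without the DLD1 line it gave -0.10 with an adjusted p of 0.0867. In DLD1 it measured 140.3, 134, 141 and 148 CPM in LRCs and 187, 181, 194 and 192 CPM in non-LRCs. SRPK2 gave 0.03 (adjusted p = 0.652).

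Each line was then tested alone with its own 8 samples. RKO LRCs had 27 of 36 members lower, where 21% of all genes tested were lower, and 0 higher, where 20.4% were (edgeR, 1 member higher at an unadjusted p under 0.05 and 0 by DESeq2). DLD1 LRCs had 19 members lower against 7.89% of all genes, and 0 higher against 6.67% (2 higher at an unadjusted p under 0.05 and 1 by DESeq2). Of these, 18 members were lower in both lines, SRPK1 was lower in DLD1 and not called in RKO, and 9 members (HNRNPC, HNRNPL, HNRNPUL1, SRSF9, SRSF4, SRSF6, HNRNPH2, HNRNPK and HNRNPA0) were called in RKO and not in DLD1. With the replicate block, which suits the paired DLD1 samples, 23 members were lower in DLD1, against 2261 of 13592 genes. Among them were HNRNPC (edgeR adjusted p = 0.0174), HNRNPL (4.38e-05), HNRNPK (0.000535) and SRSF6 (0.00218) of these 9. The members with the smallest p in RKO were HNRNPD (-0.93, SE 0.0782, adjusted p = 4.47e-07), SRSF2 (-0.84, SE 0.0763, adjusted p = 9.85e-07), SRSF1 (-0.84, SE 0.0838, adjusted p = 2.31e-06) and SRSF3 (-0.81, SE 0.0827, adjusted p = 3.11e-06). In DLD1 they were SRSF1 (-0.60, SE 0.0482, adjusted p = 0.000254), SRPK1 (-0.40, SE 0.0474, adjusted p = 0.00116), HNRNPA3 (-0.45, SE 0.0535, adjusted p = 0.00121) and HNRNPA2B1 (-0.39, SE 0.0475, adjusted p = 0.00122). HNRNPA2B1, which binds and sorts many RNAs, measured 661, 626, 624 and 644 CPM in DLD1 LRCs against 865, 849.7, 837 and 842 CPM in non-LRCs. In RKO it measured 531, 657, 722 and 686 CPM against 1099, 1102, 1152 and 1107 CPM. It did not overlap between the populations of either line.

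In the other 4 lines edgeR called 0 members, higher or lower. In HT55 all-gene calls were also 0% in both directions. An unadjusted p under 0.05 was reached there by 5 of 36 members (0 higher and 5 lower) and 1005 of 13391 genes. SW948 likewise had 0% of genes called in both directions in this fit. Under an unadjusted 0.05 it had 10 members (4 higher and 6 lower) and 2350 of 13674 genes. In SW48 0.72% of genes were higher and 0.0758% lower. Under an unadjusted 0.05 it had 7 members (0 higher and 7 lower) and 1728 of 13196 genes. In HCT15 0.728% of genes were higher and 0.25% lower, with 8 members (1 higher and 7 lower) and 2415 of 14017 genes under an unadjusted 0.05. These gene totals were not split by direction. DESeq2 called 0 members lower in HT55 and SW948, 2 in SW48 and 5 in HCT15. Over all genes tested it called 7 lower in HT55, 20 in SW948, 81 in SW48 and 206 in HCT15. Replicate numbers, by which samples went together most clearly in HT55, SW48, DLD1 and HCT15, were also entered in the fit as a block. SW48 then had 4 members lower (SRSF1, HNRNPD, HNRNPM and HNRNPA0), against 572 of 13196 genes. HCT15 had 6 lower (SRSF1, SRSF2, SRSF3, SRSF6, SRSF7 and HNRNPA3), against 1406 of 14017 genes. SRSF4 was higher there by 0.21, where 1581 genes were higher. SW948 had no member called under the block, against 419 genes higher and 82 lower of 13674. In DLD1 the block called CLK3 (0.24, edgeR adjusted p = 0.00152) and SRSF5 (0.16, adjusted p = 0.0038) higher, against 2330 of 13592 genes. Leaving out LRC replicate 4 of SW948 gave 5 members lower and 2 higher, against 696 lower and 1260 higher of 13517 genes. Leaving out non-LRC replicate 2 of HT55 gave 1 lower, against 138 of 13290 genes. Log2 fold changes were below 0 for 23 members in SW948, 26 in HT55, 26 in HCT15, 28 in DLD1, 30 in SW48 and 33 in RKO. Over all genes they were below 0 for 6993 of 13674 in SW948, 6795 of 13391 in HT55 and 7060 of 14017 in HCT15. For DLD1, SW48 and RKO these were 6389 of 13592, 6806 of 13196 and 6249 of 12731. Of the members, 17 were below 0 in all 6 lines, a count not made over all genes.

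**Figure D3:**
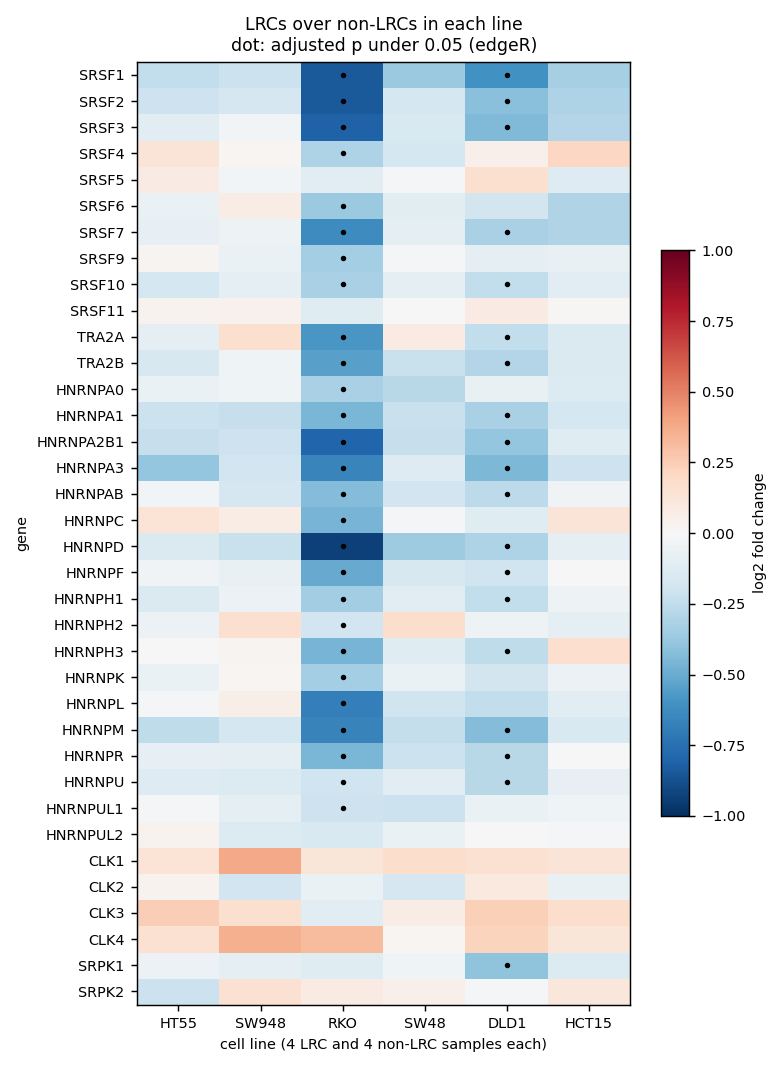
Log2 fold change, LRCs over non-LRCs, of each tested member (rows) in each line (columns), on a color scale from -1 (blue) to 1 (red). Black dots mark an adjusted p under 0.05 in the test of that line. The dots fall in RKO (27) and DLD1 (19), and the RKO column is the darkest blue for most SRSF and HNRNP rows.

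The size of the LRC effect differed between lines for 13 of 36 members (SRSF1, SRSF3, SRSF4, SRSF7, SRSF9, TRA2A, HNRNPA3, HNRNPC, HNRNPD, HNRNPF, HNRNPH3, HNRNPL and HNRNPM) in edgeR's F test of the line-by-population terms, against 14.3% of all genes. The RKO estimate was the lowest of the 6 lines for 29 of 36 members, a count not made over all genes. RKO also had the most genes called of the 6 lines, 5279 of 12731 (41.5%). Without RKO 0 members passed edgeR's F test of the line-by-population terms, where 166 of all 16286 genes did. At an unadjusted p under 0.05 there were 6 members without RKO. With RKO there were 23, against 5017 of 16603 genes. DESeq2 called 16 members with RKO included, against 3277 of 16603 genes. Leaving out replicate number 1 gave 5 members, leaving out number 4 gave 8, and leaving out number 2 gave 20. Over all genes these fits called 522 of 16329, 881 of 16310 and 2850 of 16380. HNRNPD had the smallest p (adjusted p = 4.21e-05), with -0.93 in RKO against -0.09 to -0.35 in the other lines. HNRNPC, which binds U-rich tracts, followed (adjusted p = 7.87e-05), with 350.4, 374, 369 and 370.1 CPM in RKO LRCs against 479.5, 479, 529.9 and 509 CPM in RKO non-LRCs. In HT55 HNRNPC ran the other way, at 356, 369, 389.9 and 351 CPM in LRCs and 314, 345, 344 and 324 CPM in non-LRCs, although it was not called there. HNRNPH3 (adjusted p = 0.00013) and HNRNPL (adjusted p = 0.000214) came next, with log2 changes of -0.47 and -0.69 in RKO. HNRNPL, which binds CA repeats, measured 199, 223, 255 and 228 CPM in RKO LRCs against 348, 345, 371 and 376 CPM, whereas in SW948 it measured 403, 341, 345 and 320.2 CPM against 347, 355, 323 and 333 CPM. HNRNPH3 measured 107, 124, 113 and 125 CPM in RKO LRCs against 153, 159, 166 and 163 CPM, and 171, 169, 137 and 135 CPM in HCT15 LRCs against 134, 150.1, 136 and 129.8 CPM. In RKO neither gene overlapped, and in SW948 (HNRNPL) and HCT15 (HNRNPH3) the samples of both populations were mixed.

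Close relatives were set side by side over the lines. Their changes were not tested against each other. SRSF1 (-0.44) and SRSF9 (-0.10), which share a domain layout, were both lower, as were SRSF3 (-0.31) and SRSF7 (-0.25). SRSF6 was lower (-0.16) and SRSF4, a close relative, gave -0.01. In HCT15 SRSF6 measured 153, 133, 138 and 151 CPM in LRCs against 168, 177, 188 and 180.1 CPM, and SRSF4 measured 127, 121, 111 and 103 CPM against 102, 111, 98.5 and 91.1 CPM. TRA2B was lower (-0.24, adjusted p = 8.69e-05), and TRA2A missed the threshold (-0.14, adjusted p = 0.0508) and passed under the replicate block (adjusted p = 0.0462). HNRNPA1 (-0.27) and HNRNPA2B1 (-0.33) were both lower. HNRNPH1 was lower (-0.16) and HNRNPH2, whose counts share a locus with a readthrough gene, gave -0.01. HNRNPUL1 was lower (-0.11) and HNRNPUL2 gave -0.06. CLK1 (0.18) and CLK4 (0.19) were both higher, CLK3 was higher (0.13) and CLK2 gave -0.06, and SRPK1 was lower (-0.15) where SRPK2 gave 0.03.

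Other splicing genes were taken as lists and described by counts. Of all genes tested, 10.7% were lower across the lines and 12.2% higher, with a median of 0.01. Of 12 further hnRNP genes tested, 8 were lower across the lines and 0 higher, with a median of -0.16, led by RBMX (-0.23), the tract-binding PTBP1 (-0.21) and KHSRP (-0.16). Of 47 core spliceosome genes, 23 were lower and 0 higher with a median of -0.11, led by SNRPA (-0.34), U2AF2 (-0.17) and SNRPF (-0.26). Of 28 other splicing regulators, 7 were lower (25%) and 3 higher (10.7%), the latter below the share of all genes. Their median was -0.07, and KHDRBS1 (-0.15), RBM10 (-0.16) and TARDBP (-0.16) led them. Of 6 further kinases and import factors of SR proteins, 0 were lower and DYRK1A alone was higher (0.13, 16.7% of the list).

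Proliferation genes were lower in the lines with the most members called. Over the lines 9 of 16 were lower, against 10.7% of all genes, with a median of -0.27. The replicative helicase subunits MCM3 (-0.24), MCM2 (-0.28) and MCM7 (-0.26) led them, and MKI67 gave -0.39 (edgeR adjusted p = 0.0668). The proliferation median was -0.69 in RKO and -0.56 in DLD1, where 14 of 16 were lower in each, against 21% and 7.89% of all genes. In SW48 it was -0.46, where 0 were called. In HT55, SW948 and HCT15 it was 0.05, -0.04 and 0.11 with 0 called, while the median of the SRSF, TRA2 and HNRNP members was -0.07, -0.06 and -0.10. MYC was lower over the lines (-0.24, adjusted p = 0.008). The 13 mitochondrially encoded genes had 8 higher over the lines, against 12.2% of all genes. The mitochondrial share of reads had a median of 5.0% in RKO non-LRCs and 8.86% in RKO LRCs, and of 9.92% and 13% in SW48. It was 6.01% and 5.93% in DLD1, 5.09% and 4.79% in SW948, 7.66% and 8.32% in HT55 and 5.62% and 6.71% in HCT15. The median of the mitochondrial genes was 0.77 in RKO and 0.44 in SW48, against -0.01 in DLD1 and -0.15 in SW948. Of 10 stress genes, 3 were higher and 0 lower, led by ATF3 (1.19), against 12.2% and 10.7% of all genes. Of the 10 epithelial markers VIL1 alone was called (10% of the list), lower at -0.30, near the 10.7% of all genes lower. The part of proliferation, mitochondrial reads and stress in the members' changes was not tested.

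**Figure D4:**
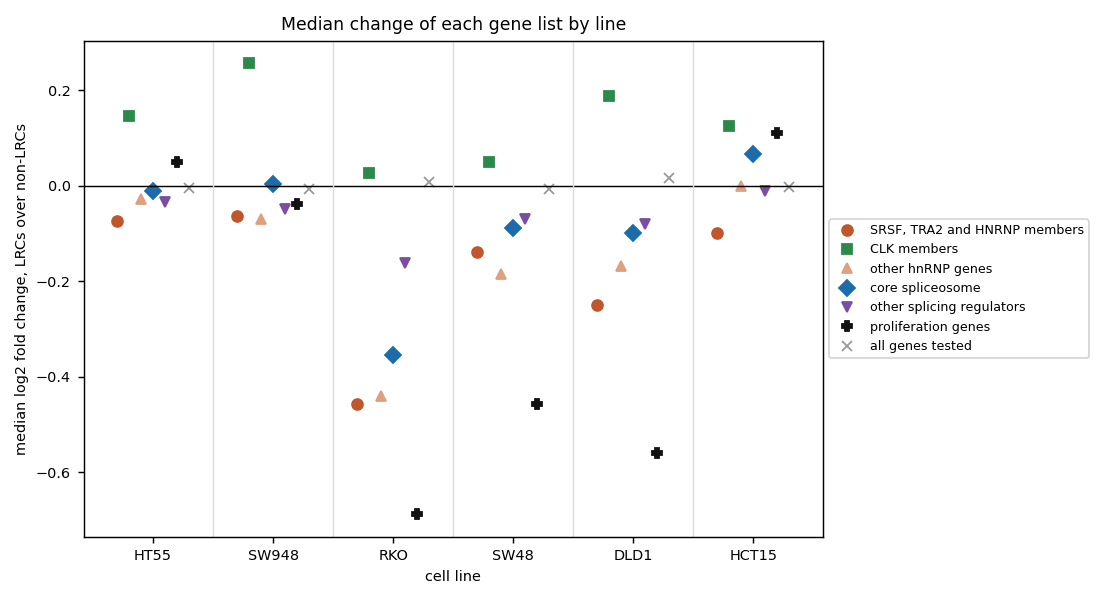
Median log2 fold change, LRCs over non-LRCs, of 6 gene lists and of all genes tested, in each line. The SRSF, TRA2 and HNRNP members (orange circles) lie below 0 in all 6 lines, from -0.06 in SW948 to -0.46 in RKO, and the proliferation genes (black crosses) lie above 0 in HT55 and HCT15.

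The unsorted DLD1 controls asked how time in culture and the dye alone move these genes. Over time in culture CLK genes, several SR genes and HNRNPH1 and HNRNPH3 fell. CLK1, CLK2, CLK4, SRSF4, SRSF5, SRSF6, HNRNPH1 and HNRNPH3 fell in both unlabeled and labeled cells, HNRNPC, HNRNPH2 and SRPK2 rose in both, and SRSF1 and SRSF3 were not called in either. In unlabeled cells 11 of 36 members were lower on the later day, against 13.1% of all genes, and 3 were higher, against 12.4%. In CFSE-labeled cells 10 were lower, against 19.1%, and 7 were higher, against 20.2%. These counts and those below came from 1 edgeR fit of the 16 controls, and the contrasts share control groups. The time effect differed with the dye for 0 members in either direction by edgeR, against 0.847% of all genes higher and 0.152% lower. At an unadjusted p under 0.05 there were 3 members, against 2474 of 14518 genes. DESeq2 called 1 member higher, against 394 genes. The share of reads outside annotated genes moved with time as well, at 8.96% to 13.6% in DMSO d1 against 5.19% to 8.35% in DMSO d5 and 12.1% to 14.8% in CFSE d1 against 5.2% to 7.31% in CFSE d5. DMSO d1 replicate 4 had the lowest share of the earlier-day samples. Proliferation genes had 8 of 16 lower over time in unlabeled cells (median -0.45) and 7 of 16 higher in labeled cells (median 0.35), where 9 of 10 stress genes fell (median -1.56). The part of these in the members' changes was not tested. Without DMSO d1 replicate 4 the test of time with dye gave 3 members higher, against 643 of 14450 genes. Without CFSE d1 replicate 4 it gave 1 lower, against 148 of 14424 genes.

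CLK2 had the lowest log2 fold change of the members in both contrasts. It measured 54.6, 54.6, 48.8 and 28 CPM in DMSO d1 and 14.3, 13, 20.8 and 30.2 CPM in DMSO d5, where replicate 4 of each day overlapped, and changed by -1.25 (SE 0.269, adjusted p = 0.00814). In CFSE-labeled cells CLK2 went from 58.1, 49.8, 51.7 and 57.6 CPM to 14.7, 12.5, 26.5 and 17.5 CPM without overlap (-1.61, SE 0.271, adjusted p = 0.000489). CLK1 changed by -0.70 in unlabeled and -1.13 in labeled cells, and CLK4 by -0.62 and -0.61. CLK3 gave 0.08 in unlabeled cells and was lower in labeled cells (-0.56, adjusted p = 0.00718). Of the SR genes, SRSF5 fell from 207, 191, 201 and 152 CPM to 90.7, 90, 113 and 157 CPM in unlabeled cells (-0.74, SE 0.167, adjusted p = 0.00902), with replicate 4 of both days at nearly the same level, and by 0.87 on the log2 scale in labeled cells (SE 0.167, adjusted p = 0.00111). HNRNPH1 fell from 839, 688, 626 and 616 CPM to 405, 378, 433 and 386 CPM in labeled cells (-0.79, SE 0.147, adjusted p = 0.000919) and by 0.72 in unlabeled cells (SE 0.147, adjusted p = 0.00734). SRSF2 measured 369, 366, 346 and 222 CPM in DMSO d1 against 192, 241, 219.7 and 222 CPM in DMSO d5 (-0.58, SE 0.142, adjusted p = 0.0123), with DMSO d1 replicate 4 at the later-day level. In the sorted DLD1 samples the LRC to non-LRC log2 fold change was 0.10 for CLK2, 0.15 for CLK1, 0.16 for SRSF5 and -0.25 for HNRNPH1.

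**Figure D5:**
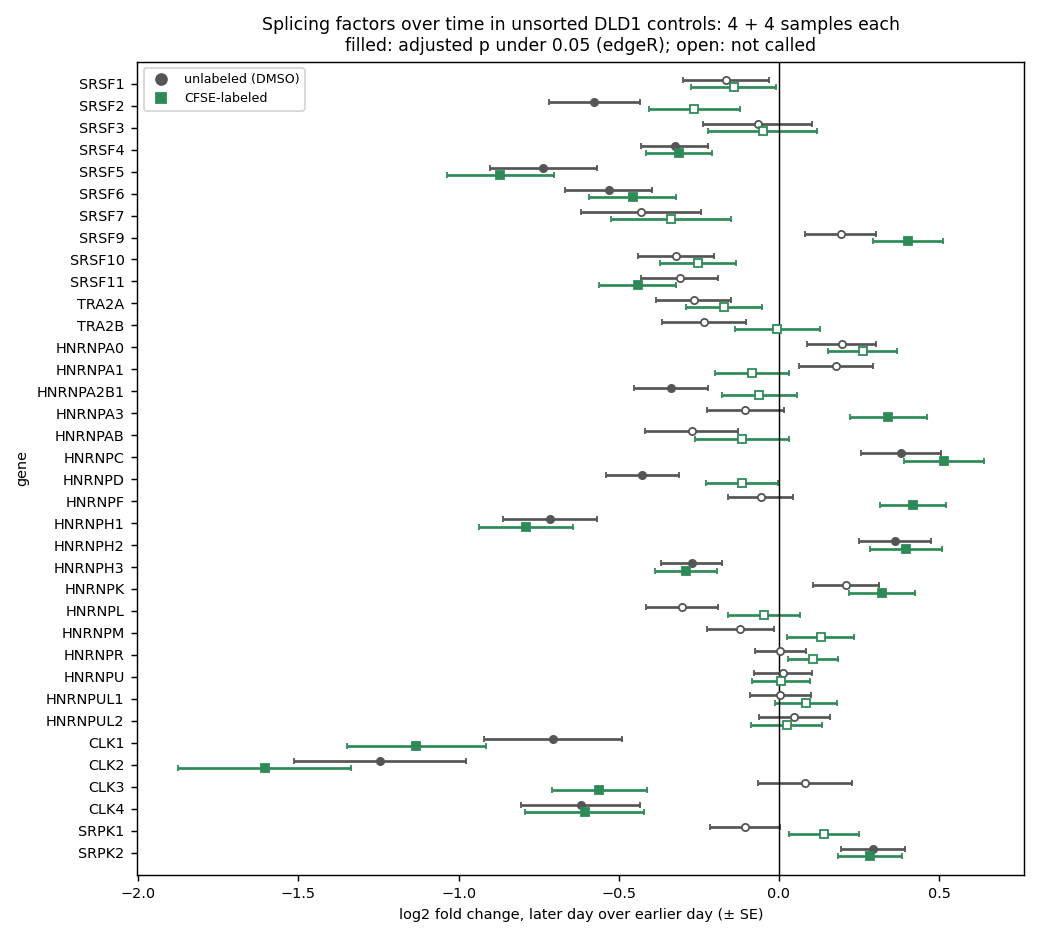
Log2 fold change from the earlier to the later day of each tested member in unsorted DLD1 controls, unlabeled (gray circles) and CFSE-labeled (green squares), 4 samples a group, with standard errors. Filled symbols passed an adjusted p of 0.05. The longest excursions to the left are those of CLK2 and CLK1, and SRSF1 and SRSF3 are open in both series.

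The members that rose over time were fewer, and their share did not exceed that of all genes. It was 8.33% against 12.4% in unlabeled cells and 19.4% against 20.2% in labeled cells. HNRNPC went from 617, 609.9, 657 and 656 CPM to 981, 1003, 797 and 849 CPM in labeled cells (0.52, SE 0.125, adjusted p = 0.00455) and was higher by 0.38 in unlabeled cells (adjusted p = 0.0361). HNRNPF went from 411, 445, 438 and 426 CPM to 615, 632, 521 and 531 CPM in labeled cells, without overlap. HNRNPF (0.42, adjusted p = 0.00474), SRSF9 (0.40, adjusted p = 0.00906), HNRNPK (0.32, adjusted p = 0.02) and HNRNPA3 (0.34, adjusted p = 0.0334) were higher in labeled cells, and HNRNPH2 in both (0.36 and 0.40). SRPK2 was higher by 0.29 and 0.28. The unlabeled contrast depended on single libraries, for the members and for all genes. Without DMSO d1 replicate 4, which had the lowest mean correlation with its own group (r = 0.978 over genes), 18 members were lower. Without DMSO d1 replicate 1, 2 or 3 the number was 3, 4 or 5, and without DMSO d5 replicate 2 or 3 it was 6 or 7. Over all genes, 1902 lower calls became 3304 without DMSO d1 replicate 4 and 683, 906 and 877 without replicates 1, 2 and 3. They became 1254 and 1275 without DMSO d5 replicates 2 and 3. The 3 higher members became 0 when any of 5 libraries was left out (DMSO d1 replicates 1, 2 and 3 and DMSO d5 replicates 1 and 2). They became 1 without DMSO d5 replicate 3. Over all genes, 1793 higher calls became 280 to 990 in the former fits and 1110 in the latter. In labeled cells 6 members were lower without CFSE d1 replicate 1, where lower calls over all genes went from 2771 to 2034. The 7 higher became 4 without it, 2 without CFSE d1 replicate 2 and 4 without CFSE d5 replicate 1 or 2. Over all genes, 2935 higher calls became 2182, 1795, 2566 and 2457 in these fits. Library size without TMM scaling gave 18 members lower and 0 higher in unlabeled cells, against 2398 lower and 714 higher of 14518 genes. The median of all genes was then -0.09 in place of 0.04.

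With the dye, the edgeR fit as reported called no larger a share of members than of all genes. On the later day other settings called more members. SRSF1, HNRNPH3 and CLK3 were higher on the earlier day, and HNRNPAB on the later day. On the earlier day 3 members (8.33%) were higher in CFSE-labeled than in DMSO-treated cells, against 9.73% of all genes. Lower members numbered 0, against 12% of all genes, and DESeq2 also called 0 lower. An unadjusted p under 0.05 was reached by 8 of 36 members and 5296 of 14518 genes. SRSF1 measured 498, 445, 436 and 455 CPM with CFSE against 348, 359, 376 and 301 CPM without (0.41, SE 0.133, adjusted p = 0.0378), with no overlap. HNRNPH3 measured 289, 281, 259 and 259 CPM with CFSE against 227, 227, 219.9 and 175 CPM (0.36, SE 0.0963, adjusted p = 0.0161). CLK3 measured 80.8, 79.5, 50.3 and 49.2 CPM against 48.5, 50.5, 42.3 and 45.3 CPM (0.48, SE 0.147, adjusted p = 0.0286), so that replicates 1 and 2 stood above the rest. The stress genes were higher with CFSE on this day too, 7 of 10 with a median of 1.17, and their part in these differences was not tested. The 3 higher members became 0 without DMSO d1 replicate 4 or CFSE d1 replicate 1 and 1 without CFSE d1 replicate 2. Over all genes, 1413 higher calls became 1068, 543 and 628 in these fits. On the later day HNRNPAB alone was higher (2.78% of members), against 3.11% of all genes. It measured 405, 406, 301 and 313 CPM with CFSE against 228, 266, 241 and 226 CPM without (0.57, SE 0.147, edgeR adjusted p = 0.0359). No member was lower, against 2.03% of all genes. Below an unadjusted p of 0.05 were 14 of 36 members (14 higher and 0 lower) and 3537 of 14518 genes. The median log2 fold change on that day was 0.16 for the members and -0.03 for all genes. DESeq2 called 9 members higher, against 800 of 14518 genes. With the replicate block, or with the samples of these groups alone, edgeR also called more members higher, as given below. On that day 14 of 16 proliferation genes were higher with CFSE, with a median of 0.78, and their part in the HNRNPAB difference was not tested. The HNRNPAB call was lost when DMSO d5 replicate 1, 3 or 4 or CFSE d5 replicate 1 or 2 was left out. Without any of the other 3 libraries 2 members passed. Over all genes, higher calls numbered 0 to 69 in the former fits and 487 to 541 in the latter.

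Promoter windows of the members were read from RefSeq (GRCh38.p14, 250 bases before to 50 after each start), where 34 of the 37 members had 51 windows. The E-box CACGTG, bound by MYC and MAX and searched on both strands (it is its own reverse complement), was in 8 of the 51 windows (15.7%), against 8.9% of 17131 windows of genes that passed the filter and 7.26% of all 35116. The GC box GGGCGG was in 62.7% of member windows and 63.7% of tested windows, the CCAAT box in 37.3% and 34.4%, and the TATA box TATAAA in 13.7% and 7%. Of the 8 members with an E-box, 5 were lower in LRCs across the lines (HNRNPA3, HNRNPD, HNRNPM, HNRNPH3 and HNRNPUL1), CLK4 was higher, and CLK2 and HNRNPH2 were not called. Of all 34 members with a window, 22 were lower. A match is a description of the letters, not a bound site. The windows that hold it among the 8 lower members of smallest p, and that of CLK4, which was higher, are shown 5′ to 3′ with the E-box in capitals. HNRNPA3 lies at chr2:177212544-177212843 (plus strand), HNRNPD at chr4:82373942-82374241 (minus), HNRNPM at chr19:8444725-8445024 (plus) and CLK4 at chr5:178627001-178627300 (minus). The E-box begins 71, 27, 42 and 111 bases before the start.
HNRNPA3: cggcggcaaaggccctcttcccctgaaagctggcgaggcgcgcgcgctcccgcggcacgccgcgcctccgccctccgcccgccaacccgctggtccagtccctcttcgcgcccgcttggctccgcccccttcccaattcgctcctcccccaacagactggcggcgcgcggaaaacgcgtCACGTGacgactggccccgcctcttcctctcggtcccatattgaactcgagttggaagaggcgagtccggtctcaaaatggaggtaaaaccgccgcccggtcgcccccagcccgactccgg
HNRNPD: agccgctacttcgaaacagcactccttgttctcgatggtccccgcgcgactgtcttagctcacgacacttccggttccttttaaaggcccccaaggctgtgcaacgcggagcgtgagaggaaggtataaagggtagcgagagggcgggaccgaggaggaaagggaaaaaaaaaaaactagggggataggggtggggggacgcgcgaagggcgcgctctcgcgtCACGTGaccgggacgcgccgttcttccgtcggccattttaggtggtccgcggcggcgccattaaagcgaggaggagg
HNRNPM: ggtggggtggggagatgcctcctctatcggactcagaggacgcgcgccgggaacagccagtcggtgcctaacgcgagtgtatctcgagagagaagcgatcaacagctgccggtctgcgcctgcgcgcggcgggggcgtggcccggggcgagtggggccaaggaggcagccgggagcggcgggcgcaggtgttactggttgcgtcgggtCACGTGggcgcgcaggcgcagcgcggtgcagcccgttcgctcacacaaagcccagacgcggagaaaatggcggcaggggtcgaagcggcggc
CLK4: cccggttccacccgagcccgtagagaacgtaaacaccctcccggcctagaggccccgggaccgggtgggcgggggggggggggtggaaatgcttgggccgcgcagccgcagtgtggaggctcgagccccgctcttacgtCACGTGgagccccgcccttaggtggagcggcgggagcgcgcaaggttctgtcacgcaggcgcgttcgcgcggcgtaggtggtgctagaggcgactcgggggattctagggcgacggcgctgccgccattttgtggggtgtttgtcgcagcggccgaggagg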

How the data were processed

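The authors deposited gene read counts for 64 samples, made from single-end reads with TopHat, HTSeq and the hg19 build as the submitters' processing notes name them. The annotation release, strand setting and versions were not given in the sources used here. Such counts leave out reads that fit several genes and do not separate isoforms. Rows that name no gene (5.19% to 14.8% of reads without a feature) were left out. Identifiers were paired with symbols and GRCh37 positions for 47098 of 54127 genes.

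A gene needed 10 or more counts in 4 or more samples, and testing used edgeR 4.0.16 (quasi-likelihood F test, TMM scaling, R 4.3.3, with limma 3.58.1), with Benjamini-Hochberg adjustment over all genes tested and a threshold of 0.05. SE is the log2 fold change over the square root of F. CPM used TMM-scaled totals, for the 48 sorted and the 16 control samples apart. Cell line was a covariate across lines, each line was fitted alone, and the controls in 1 fit. DESeq2 1.42.0, other filters, scaling, left-out libraries and lines and a replicate block were alternatives. Same-numbered samples of both populations deviated together from their group means in HT55, SW48, DLD1 and HCT15 (lowest r 0.237, 0.216, 0.290 and 0.369). In SW948 the mean r was 0.098 (lowest -0.027), against -0.032 for samples with other numbers. In the control groups the mean was 0.164 (lowest -0.285), against -0.055. In RKO it was -0.059 (lowest -0.106), against 0.020. No pair of samples held identical counts.

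Every member may be named, and those with the smallest p in each comparison, up to 8 in each direction across lines and up to 4 elsewhere, were described with the most values, with paralog pairs side by side and the 3 genes of smallest p from each other list. The members and lists were chosen with earlier results of these data known.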

Additional observations from a re-analysis of the deposited data

Results flagged for a closer look

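Of 576 groups of 4 samples, 50 (8.68%) held 1 sample whose CPM stood far from the other 3, where chance flags about 1 group in 20. In SW48 replicate 2 such values were the highest of their group, for SRSF2 (237.6 in LRCs and 258.6 in non-LRCs), HNRNPA2B1 (802.1 and 994.6), HNRNPA3 (185.7, LRCs) and HNRNPD (174.8, LRCs), while SRSF9 (149.7), TRA2B (151.4), HNRNPAB (250.7), HNRNPL (300.4) and HNRNPUL1 (428.2) stood apart in the non-LRCs. Replicate 3 of SW48 stood apart for SRSF5 in non-LRCs (227.1) and for CLK1 in LRCs (39.68).

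In HCT15 LRC replicate 1 stood apart for SRSF2 (145.1), SRSF5 (178.9) and CLK1 (73.41), replicate 2 for HNRNPAB (208.0) and replicate 3 for SRSF10 (90.71), and the non-LRCs for CLK1 (66.64, replicate 2) and CLK3 (52.92, replicate 3). In HT55 these were HNRNPD (114.0, LRC replicate 2), HNRNPF (268.6, LRC replicate 1), SRSF9 (125.4) and HNRNPR (115.1), the last pair in non-LRC replicate 2. In SW948 they were SRSF7 (156.0, LRC replicate 4), HNRNPA0 (166.6) and HNRNPC (485.4), both in LRC replicate 1, HNRNPAB (275.7, non-LRC replicate 2) and CLK2 (49.46, non-LRC replicate 1). In RKO they were TRA2B (93.05, LRC replicate 1), HNRNPF (326.4, LRC replicate 3) and HNRNPA2B1 (1152, non-LRC replicate 3). In sorted DLD1 they were SRSF4 (76.48), HNRNPM (181.2), HNRNPUL1 (381.5) and TRA2B (109.9) in LRC replicates 1, 2, 3 and 4, and SRSF5 (166.2) and CLK4 (10.7) in non-LRC replicate 4.

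In the controls DMSO d1 replicate 4 stood apart for SRSF2 (222.3), HNRNPF (437.6) and HNRNPH3 (175.4). DMSO d5 gave TRA2A (102.4, replicate 4), HNRNPF (535.6) and CLK4 (9.215), both in replicate 2, and HNRNPM (311.9, replicate 1). CFSE d1 replicate 1 gave SRSF5 (231.3) and SRSF11 (253.3), and CFSE d5 gave HNRNPR (275.8, replicate 1), HNRNPUL1 (423.9, replicate 2) and CLK1 (62.84, replicate 3).

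The LRC effect differed between lines by edgeR's F test for 13 members, with adjusted p of 4.21e-05 for HNRNPD, 7.87e-05 for HNRNPC, 0.00013 for HNRNPH3, 0.000214 for HNRNPL, 0.000474 for SRSF4, 0.001 for SRSF3, 0.00228 for HNRNPF, 0.0039 for SRSF1, 0.00444 for TRA2A, 0.0194 for SRSF7, 0.039 for HNRNPM, 0.0398 for HNRNPA3 and 0.0489 for SRSF9.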

How the results depend on the processing

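Across lines, 19 to 25 members were lower under every alternative run, against 1078 to 2019 of all genes. The 3 higher became 0 without SW948, 0 without DLD1 and 1 without RKO, and 0 to 1 with a replicate number left out. Within lines, other settings gave these counts of members. Without a filter on low counts 1 was higher in SW948 and 1 in RKO, against 773 of 27040 and 2729 of 24769 genes. In SW48 2 were lower by DESeq2, 4 under the replicate block and 3 in one fit of all 48 sorted samples. Over all genes these were 81, 572 and 114. In HCT15 5 were lower by DESeq2, 6 under the block (1 higher) and 1 in one fit. Over all genes 206, 1406 (1581 higher) and 334 were lower. In DLD1 1 was higher by DESeq2, 1 without TMM and 2 under the block, against 969, 883 and 2330 of all genes. Leaving out single libraries gave 0 to 1 lower in HT55 and 0 to 5 lower and 0 to 2 higher in SW948. Over all genes these were 0 to 138, 0 to 696 and 0 to 1260. RKO and DLD1 had 0 to 1 higher each, against 2123 to 2520 and 456 to 860 of all genes. The effect differed between lines for 23 members under the block, 0 without RKO and 5 to 20 without a replicate number. Over all genes it did for 5581, 166 and 522 to 2850.

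In unlabeled controls over time, 18 members were lower without TMM, 5 in a fit of the 8 samples alone and 3 to 18 without single libraries. Over all genes the lower calls were 2398, 625 and 683 to 3304. Higher members numbered 0 without TMM, 0 without a filter and 0 with 10 counts required in every sample. They numbered 0 in the 8 samples alone and 0 to 3 without single libraries. Over all genes these were 714, 1374, 1186, 119 and 280 to 2773. In labeled controls 3 were higher without TMM, 4 without a filter, 4 with the stricter filter and 2 to 8 without single libraries. Over all genes these were 1967, 2917, 2023 and 1795 to 2815. Without single libraries 6 to 10 were lower, against 2034 to 2751 of all genes. On the earlier day the dye gave 0 higher without a filter, 5 under the block, 1 in the 8 samples alone and 0 to 4 without single libraries. Over all genes these were 1305, 1688, 639 and 543 to 1784. Without TMM 1 member was lower, against 1661 genes. On the later day the dye gave 9 higher by DESeq2, 2 without TMM, 2 without a filter and 6 under the block. It gave 7 in the 8 samples alone and 0 to 2 without single libraries. Over all genes these were 800, 402, 598, 810, 752 and 0 to 541. The time effect differed with the dye for 1 member (higher) by DESeq2, against 394 genes. Without single libraries 0 to 3 members were higher and 0 to 1 lower, against 14 to 643 and 2 to 237 of all genes. Without TMM the median of all genes moved from 0.04 to -0.09 (unlabeled) and from 0.02 to -0.09 (labeled).

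Members near 0 across lines changed sign, none of them called as reported. SRSF4 gave 0.041 without RKO, 0.017 without SW48 and -0.028 to 0.0011 without a replicate number. SRSF5 gave 0.00072 by DESeq2, 0.0052 with the stricter filter, 0.0090 without RKO, 0.023 without HCT15 and -0.031 to 0.016 without a replicate number. SRSF11 gave -0.0032 without TMM, -0.0032 without SW948, -0.011 without DLD1 and -0.032 to 0.020 without a replicate number. HNRNPC gave 0.035 without RKO, and HNRNPH2 0.017 without RKO and 0.0066 without HCT15. The cause of these changes was not tested.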
